A study of Homo sapiens with 6 samples.

Results

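Unnamed loci that partly overlap a named gene are transcribed stretches that the FAST DB annotation lists without a symbol and that share bases with an annotated gene without lying wholly inside it. They were selected on the deposited values and on position. A locus was taken if it carried no symbol, reached a normalized value of 10 in 3 or more of the 6 libraries, shared at least 1 base with a locus that has a symbol and was contained in none. Of 47577 loci in the table, 20784 carry no symbol, 732 of these partly overlap a named gene, and 311 passed the minimum. OVCAR3 cells are an epithelial line from a high-grade serous carcinoma of the ovary. THZ531 binds covalently to CDK12 and CDK13 and inhibits both kinases. The 3 control libraries are from cells kept in the solvent DMSO for 6 h, and the 3 others from cells exposed to 200 nM THZ531 for 6 h, each made from polyA plus RNA. The sample titles give the compound as THZ531, but the treatment protocol in the labels gives it as THZ1, a related inhibitor, and the titles were followed. All cells were of 1 established line, with no other agent or allele in the labels. The labels number the replicates but do not say that they were separate cultures, so that the p-values measure the spread between these libraries only.

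CDK12 and CDK13 phosphorylate the tail of RNA polymerase II and sustain elongation and RNA 3′ end formation along gene bodies. Many mammalian promoters are transcribed in both directions, and the RNA that runs away from the gene is usually short-lived, spliced poorly and ended early at a polyadenylation signal. Where a pair of convergent genes ends close together, their transcripts can overlap tail to tail, and transcription that runs past the end of a gene gives RNA on the same strand downstream of it.

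The reads counted on loci ranged from 53054048 to 70986130 in a library, with lower totals in the THZ531 libraries (53054048 to 57953296) than in the DMSO libraries (60146046 to 70986130). The 311 loci held between 0.0641% and 0.0667% of the summed values of a DMSO library and between 0.0431% and 0.0460% of those of a THZ531 library. All 10 markers of serous ovarian epithelium reached the minimum, with a summed value between 502348 and 516193 in DMSO and between 629954 and 645247 in THZ531. Keratins make up most of this sum, and PAX8 went the other way, from between 10645 and 11636 in DMSO to between 1161 and 1380 in THZ531, as did MUC16, from between 4198 and 4802 to between 3234 and 3445. The 5 fibroblast markers summed to between 1659 and 1911 in DMSO and between 3176 and 3517 in THZ531, the 3 endothelial markers to between 162 and 199 in DMSO and between 213 and 299 in THZ531, and the 5 leukocyte markers to between 411 and 503 in DMSO and between 408 and 490 in THZ531. CD3E was at 0 in all 6 libraries, LUM was at 1.86 or below and LYZ at 5.57 or below. Whether other cells had a part in any result was not tested. CDK12 itself was at a mean of 6762 in DMSO and 8835 in THZ531, and CDK13 at 3918 and 3863.

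The minimum that chose the loci shaped their number. All 6 libraries reached it for 198 loci. It was met in all 3 THZ531 libraries but in no DMSO library for 17 loci, and in all 3 DMSO libraries but in no THZ531 library for 11. These 28 had to differ. They are part of the counts over all 311 loci, as 15 of the 81 that rose and 11 of the 62 that fell, and the counts by direction, by class and over pairs are therefore also given for the loci at the minimum in all 6 libraries. Just inside the minimum lay a locus at FLRT2, with values of 11.9, 12.99 and 7.98 in DMSO and 10.1, 4.55 and 2.28 in THZ531. Just outside it lay a locus at OSBPL1A, with 15.9, 3.71 and 9.57 in DMSO and 6.30, 4.55 and 13.7 in THZ531. The third-highest value was 10.1 in the former and 9.57 in the latter, and in both loci the values of the treatments overlapped.

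The strand of a locus, which the table does not give, was read from the order of the identifiers, and 262 of the 311 loci received one (127 on the plus and 135 on the minus strand). The order gave the GENCODE strand for 99.56% of 22127 named loci. The strand sorts the loci by the way they meet the gene with which they share most bases. Head to head loci, which run against a gene and cover its start, were the largest class with 148 loci. Tail to tail loci, which run against a gene and cover its end, numbered 76. On the same strand as their gene were 21 loci, 17 of which began inside the gene and ran past its end. A further 22 loci contained a whole gene, and 44 had no strand for the locus or the gene. Head to head loci were short, with a median length of 2026 bases and a median of 619 bases shared with the gene. Tail to tail loci had a median length of 3684 bases, and same-strand loci of 8137 bases. A single gene was overlapped by 253 loci, 2 genes by 43 and 3 or more by 15. The 13 loci that span at least 100000 bases overlap between 1 and 29 genes, and a value there cannot be placed within the span.

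GENCODE v44 has a gene on the same stretch (at least 50% of each shared by the other) for 134 of the 311 loci. Of these, 110 are long non-coding RNAs and 8 are entries still to be tested experimentally (TEC). At 9 loci at least 50% of the bases lay in exons of a same-strand GENCODE gene that has a locus of its own in the table. For these, FAST DB lists as a locus of its own a piece that GENCODE draws with the gene.

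The 3′ ends carry the strand in their sequence. Among the 262 loci with a strand, 115 (43.9%) held the polyadenylation signal AATAAA or its variant ATTAAA in their last 50 bases on the inferred strand. Read on the other strand at the opposite end, 6 of them (2.29%) did. Over all 17085 loci past the minimum with a strand, 70.8% held a signal at their own end and 1.55% at the other. The share was 45.9% of head to head, 48.7% of tail to tail loci and 4 of the 21 same-strand loci. It was 45.1% of the loci that rose, 48.0% of those that fell and 41.8% of those not called, and the differences were not tested. The ends of 5 such loci follow, shown because they place the end of the transcript and its direction, with the signal in capitals, read 5′ to 3′ along the inferred strand on hg38. Their positions are chr1:244840642-244840671 (minus), chr22:17735185-17735214 (plus), chr12:121430590-121430619 (plus), chr1:36329190-36329219 (plus) and chr7:151051516-151051545 (minus). A signal is a match of letters and not a measured cleavage site.
Locus at the ends of COX20 and HNRNPU: gttcatAATAAAgcaagaattatttactct
Locus at the end of BID: tactttAATAAAcagtaatttttttttacc
Locus at the end of KDM2B: gtgctgcactaAATAAAatgttatttgctt
Locus at the end of SH3D21: attaatatataagaAATAAAaggtaatgat
Locus at the end of ASIC3: ttaaaaAATAAAaggaaaggaaaaaaaaac

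**Figure D1:**
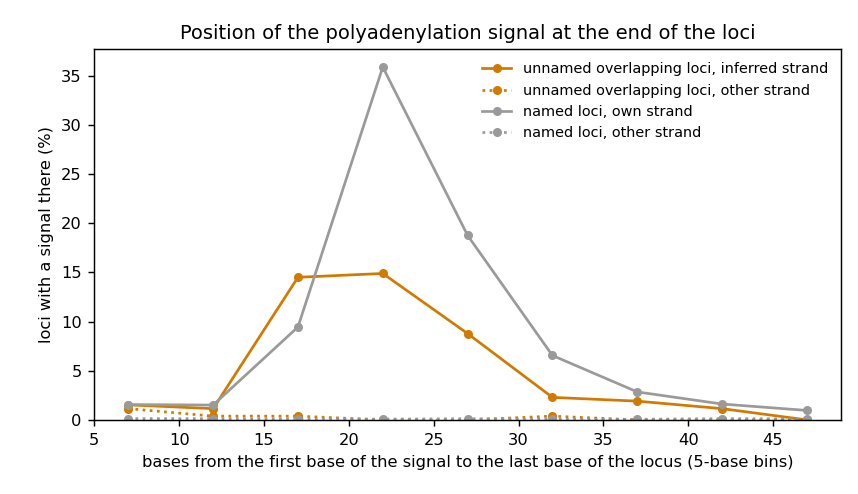
Share of loci (%) with AATAAA or ATTAAA at a given distance between the first base of the signal and the last base of the locus, in 5-base bins, for the 262 unnamed overlapping loci with a strand (orange) and for the 15179 named loci (grey). Solid lines are the inferred or annotated strand and dotted lines the other strand. On the inferred strand most signals of the unnamed loci lie 15 to 29 bases from the end, as in named loci, while the other strand stays near 0 throughout.

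Head to head loci cover the start of their gene and begin inside it, with a median of 619 bases from its start and up to 118808 bases from it, at SLC35F2. RefSeq gives a promoter window (250 bases before to 50 bases after the start, GRCh38.p14) for 127 of the 148 genes, and 105 of these windows lay wholly inside the unnamed locus. The median G and C content of the 127 windows was 66.3%, against 58.7% over all 35116 windows, and the median ratio of observed to expected CpG was 0.89 against 0.58. GGGCGG, the core of the GC box bound by SP1, was found on either strand in 62.2% of the 127 windows and in 45.0% of all. CCAAT was found in 37.0% against 34.6%, TATAAA in 5.51% against 11.5%, CACGTG in 7.87% against 7.26%, GCGCATGC in 4.72% against 3.05% and TGACGTCA in 2.36% against 1.85%. The 61 windows of genes with a tail to tail locus at their other end were similar in composition (65.0% G and C, GGGCGG in 62.3%). Expressed genes are not separated from silent ones in the set of all windows, and nothing particular to head to head loci was tested. The windows of 4 genes whose start lies inside such a locus follow, on the strand of the named gene, since the unnamed locus at SDC1 and PCIF1 rose and that at HK2 and CKMT2 fell. Capitals mark CCAAT, the TATA element TATAAA and the GC box core GGGCGG on either strand. The windows are chr2:20225426-20225725 (minus) for SDC1, chr20:45934433-45934732 (plus) for PCIF1, chr2:74833877-74834176 (plus) for HK2 and chr5:81233072-81233371 (plus) for CKMT2.
SDC1: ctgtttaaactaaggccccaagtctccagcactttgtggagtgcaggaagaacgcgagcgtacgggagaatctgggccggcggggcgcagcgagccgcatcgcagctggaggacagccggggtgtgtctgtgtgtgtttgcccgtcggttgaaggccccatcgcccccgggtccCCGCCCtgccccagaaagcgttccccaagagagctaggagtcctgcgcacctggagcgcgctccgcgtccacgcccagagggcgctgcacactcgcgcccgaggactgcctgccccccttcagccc
PCIF1: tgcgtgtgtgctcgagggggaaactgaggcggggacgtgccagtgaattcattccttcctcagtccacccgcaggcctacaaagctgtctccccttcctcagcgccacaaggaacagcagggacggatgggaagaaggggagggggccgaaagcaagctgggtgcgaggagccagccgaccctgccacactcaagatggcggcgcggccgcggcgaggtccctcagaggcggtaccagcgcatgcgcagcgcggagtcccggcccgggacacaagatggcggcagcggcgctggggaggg
HK2: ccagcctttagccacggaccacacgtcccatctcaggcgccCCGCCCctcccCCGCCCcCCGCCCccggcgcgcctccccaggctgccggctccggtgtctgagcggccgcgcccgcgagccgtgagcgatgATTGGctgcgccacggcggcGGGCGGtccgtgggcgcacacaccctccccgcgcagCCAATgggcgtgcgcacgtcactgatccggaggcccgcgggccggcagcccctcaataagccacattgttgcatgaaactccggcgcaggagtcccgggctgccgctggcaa
CKMT2: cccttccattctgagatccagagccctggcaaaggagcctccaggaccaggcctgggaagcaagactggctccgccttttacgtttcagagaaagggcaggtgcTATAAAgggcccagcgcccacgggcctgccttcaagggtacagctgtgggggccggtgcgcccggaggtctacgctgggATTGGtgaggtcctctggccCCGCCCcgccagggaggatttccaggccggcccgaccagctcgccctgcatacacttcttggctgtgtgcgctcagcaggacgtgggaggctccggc
HK2 holds 4 GGGCGG and 2 CCAAT, CKMT2 holds 1 of each of the 3 motifs, SDC1 holds 1 GGGCGG, and the PCIF1 window holds none of the 3. Windows not shown differ from this order. RALGPS2, where the locus rose, holds 3 GGGCGG, and NAXD and SRSF1, where it fell, hold none of the 3 motifs. GGGCGG was found in 67.4% of 43 windows where the locus rose and 68.8% of 16 where it fell. CCAAT was found in 25.6% and 43.8% and TATAAA in 9.30% and 18.8%, and these differences were not tested.

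Exposure to THZ531 was followed by higher values at 81 of the 311 loci and lower values at 62, and 168 were not called. A locus was called at a fold change of at least 1.5 on the log2(value + 1) scale and an unadjusted limma p of at most 0.05, the thresholds of the study, and this scale understates the change of weak loci. In bulk RNA, fewer cells with a transcript and less of it per cell cannot be told apart. The background over all 17568 loci past the minimum was 15.7% that rose and 23.9% that fell, against 26.0% and 19.9% of the 311. Among the 198 loci at the minimum in all 6 libraries, 46 rose (23.2%) and 43 fell (21.7%), against a background of 14.2% and 23.0% over the 15376 such loci in the table. With the limma p adjusted over all loci, 75 rose and 61 fell. The balance of both directions rested on the scaling and on the minimum. At a minimum of 50, 38 of 138 loci rose and 44 fell, and the share over all loci was not counted there. With all libraries brought to 1 total, a shift of -0.24 in THZ531 on the log2 scale against the deposited values, 64 rose and 80 fell, and with RPL34 as the reference, a shift of -0.49, 45 rose and 101 fell. The median log2 fold change of the 311 was 0.17 as deposited and -0.32 with RPL34. Over all 17568 loci it was -0.01 as deposited. Each scaling shifts all loci alike, so that this background moves down with the 311. The shares of all loci called under the other scalings were not counted. In the same fit the 1355 unnamed loci nested inside a gene had a median of 0.38 and the 624 unnamed loci apart from genes one of -0.32.

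By class, 47 of the 148 head to head loci rose and 23 fell, a balance that turned to 25 and 43 when the libraries were scaled to RPL34. At the minimum in all 6 libraries were 92 of them, of which 25 rose and 17 fell. Of the 76 tail to tail loci, 17 rose and 15 fell (10 and 23 with RPL34), and 10 and 11 of the 51 at the minimum in all libraries. Of the 21 same-strand loci, 5 rose and 7 fell, and 4 and 4 of the 15 at the minimum in all libraries. Of the 22 that contain a gene, 2 rose and 7 fell, and 1 and 4 of the 11 at the minimum in all. Among the 44 without a strand 10 rose and 10 fell, and 6 and 7 of 29. Of the 64 loci with a mean of at least 100, each at the minimum in all 6 libraries, 11 rose and 25 fell. Of the 134 others at the minimum in all 6 libraries, 35 rose and 18 fell. The shares over all loci of like abundance were not counted, so that this contrast cannot be called particular to these loci. The median G and C content of the whole locus was 55.3% in head to head and 47.0% in tail to tail loci.

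**Figure D2:**
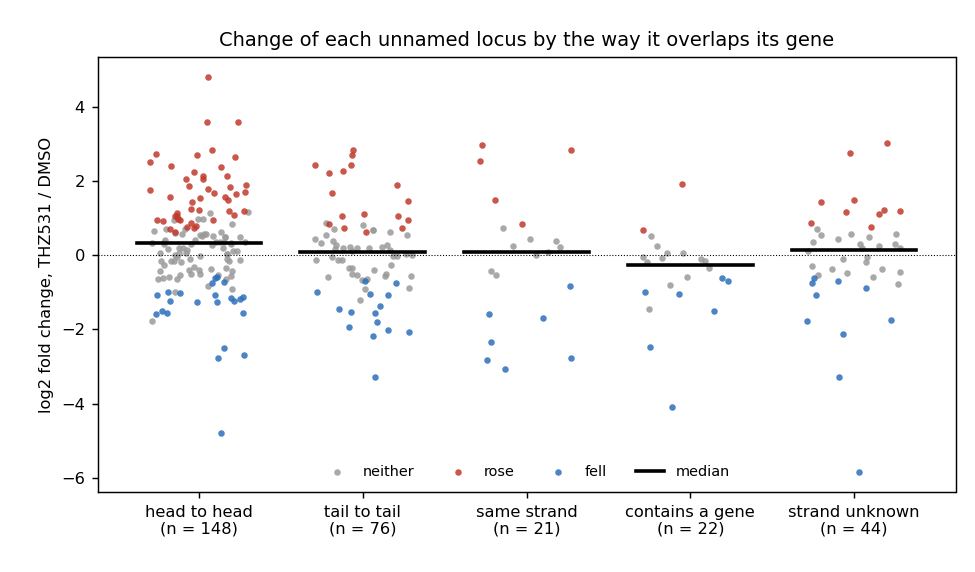
Log2 fold change (THZ531 over DMSO, from log2(value + 1) of 3 libraries each) of each of the 311 unnamed loci by the way it overlaps its gene. Each point is 1 locus, red if it rose, blue if it fell and grey if it was not called, and black bars are medians. Rises and falls occur in each class, and the head to head median lies at 0.33 as deposited. This value becomes -0.14 when the libraries are scaled to RPL34, which lowers all loci alike.

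The head to head loci that rose most among those with a mean of at least 50 cover the starts of SDC1, RALGPS2 and PCIF1 and begin 203 to 1121 bases inside these genes. They were picked among called loci whose treatments do not overlap, so that this separation is no result. SDC1 encodes syndecan-1, a cell surface heparan sulfate proteoglycan. The unnamed locus at its start (GSHG0023587, chr2:20225273-20227986, plus) had values of 22.2, 16.7 and 6.38 in DMSO and 111, 84.1 and 88.7 in THZ531. The locus rose by a log2 fold change of 2.71 (SE 0.40, limma adjusted p = 1.53e-05). SDC1 itself stood at 7788 ± 269 in DMSO and 7351 ± 382 in THZ531 (SD, n = 3) and was not called. The difference between the change of the locus and that of the gene was 2.80 on the log2 scale (SE 0.42, adjusted p = 0.000178, limma over all pairs). The log2 fold change of SDC1 was -0.08.

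At PCIF1, the cap-specific methyltransferase of adenosines at the start of mRNA, the locus (GSHG0027415, chr20:45930550-45935055, minus) covers 373 bases of the gene and matches a GENCODE long non-coding RNA without a symbol. It had values of 54.8, 50.1 and 68.6 in DMSO and 295, 246 and 199 in THZ531. The log2 fold change was 2.07 (SE 0.20, adjusted p = 1.62e-07). PCIF1 went from 1258 ± 77.3 to 795 ± 62.6 and fell by 0.66 on the log2 scale (adjusted p = 1.07e-06), a difference of 2.73 (SE 0.22). The locus at RALGPS2, a guanine nucleotide exchange factor for Ral GTPases, corresponds to the annotated RALGPS2-AS1 (GSHG0003324, chr1:178724306-178726285, minus). It had 34.9, 12.1 and 14.4 in DMSO and 110, 100 and 54.6 in THZ531, a log2 fold change of 2.14 (SE 0.40, adjusted p = 0.000177). RALGPS2 fell from 2450 ± 22.1 to 1310 ± 20.1 (log2 fold change -0.90). At both genes the opposite locus rose while the gene's own level fell.

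Several head to head loci reached the minimum in THZ531 only, and their values are given without weight on the test. The locus at LINC01833 had a mean of 1.37 in DMSO and 55.2 in THZ531, that at ITSN2, an endocytic scaffold, 3.71 and 52.6, that at RREB1, a zinc finger transcription factor, 4.74 and 46.5, and that at TBC1D14, a Rab GTPase regulator, 6.54 and 51.9. In the opposite direction, the locus at GNMT, the glycine N-methyltransferase of liver, had 26.9 in DMSO and was at 0 in all 3 THZ531 libraries. These loci were picked after their values were seen.

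Among head to head loci that fell, the locus at the start of HK2, the hexokinase that begins glycolysis, was at 457, 445 and 364 in DMSO and 230, 191 and 183 in THZ531 (GSHG0025483, chr2:74833416-74835160, minus). It fell by 1.06 on the log2 scale (SE 0.13, adjusted p = 2.73e-06), with no overlap between the treatments. HK2, at 3214 ± 104 and 5586 ± 260, rose by 0.80 (adjusted p = 4.05e-10). The locus was below its gene by a difference of -1.86 (SE 0.14, adjusted p = 7.74e-07). The 1034 shared bases hold the annotated start of both.

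NAXD encodes the dehydratase that repairs hydrated NADH and NADPH. Its head to head locus, NAXD-AS1 in GENCODE (GSHG0011897, chr13:110613895-110616353, minus), was at 73.8, 103 and 112 in DMSO and 25.2, 37.5 and 30.7 in THZ531. It fell by 1.59 (SE 0.28, adjusted p = 8.85e-05), while NAXD rose from 635 ± 37.1 to 1027 ± 41.0 (log2 fold change 0.69). At HK2 and NAXD the order was the reverse of that at PCIF1 and RALGPS2, with the gene up and the opposite locus down. CKMT2, a mitochondrial creatine kinase of muscle, was itself nearly silent (means of 1.59 and 0.758), and its head to head locus (GSHG0035542, chr5:81232306-81233843, minus) had 97.6, 94.6 and 80.6 in DMSO and 26.4, 6.82 and 10.2 in THZ531. It fell by 2.77 (SE 0.41, adjusted p = 1.86e-05). CKMT2 was under the minimum in all 6 libraries.

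Loci at genes of RNA processing and repair came from the lists. SRSF1 encodes an SR protein that promotes exon recognition, and its head to head locus (GSHG0018402, chr17:58006674-58008187, plus, a TEC entry in GENCODE) was at 260, 353 and 393 in DMSO and 159, 107 and 159 in THZ531. It fell by 1.24 (SE 0.18, adjusted p = 1.75e-05), and SRSF1 fell as well, from 16763 ± 415 to 10897 ± 163 (log2 fold change -0.62). The fall of the locus exceeded that of the gene by 0.62 on the log2 scale (SE 0.20, adjusted p = 0.0234). At HNRNPM, a splicing regulator, the locus stood at 14.3, 13.9 and 19.9 in DMSO and 15.1, 9.09 and 15.9 in THZ531 and was not called, while the gene went from 13701 ± 433 to 20074 ± 192, a log2 fold change of 0.55 that is under the threshold. FANCF is a subunit of the Fanconi anemia core complex. Its head to head locus, which lies wholly in exons that GENCODE gives to the neighbouring GAS2, was at 45.3, 30.6 and 19.9 in DMSO and 22.7, 35.2 and 30.7 in THZ531 and was not called. FANCF fell by 1.07, from 675 ± 81.3 to 322 ± 48.2 (adjusted p = 7.42e-07), and the difference of the locus to the gene was 1.01 (SE 0.37, adjusted p = 0.0387). The locus at the start of GTF3C2, a subunit of the RNA polymerase III factor TFIIIC, had the highest mean among loci that cover a start, 553 ± 29.9 in DMSO and 687 ± 84.7 in THZ531. Its log2 fold change of 0.31 was under the threshold and turned to -0.19 with RPL34 scaling.

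Of the 15278 named loci tested, 13.3% rose, 23.7% fell and 2.43% overlapped an unnamed locus of this kind. The DNA damage response list had 76 tested genes, of which 9 rose and 24 fell, and 1 of them (FANCF) overlapped such a locus. The list for cleavage, polyadenylation and elongation had 53 tested genes, of which 13 rose and 9 fell, and 2 (PAF1 and ELL) overlapped one. The splicing factor list had 47 tested genes, of which 7 rose and 4 fell, and 2 (SRSF1 and HNRNPM) overlapped one. None of the 13 genes that the study names did.

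**Figure D3:**
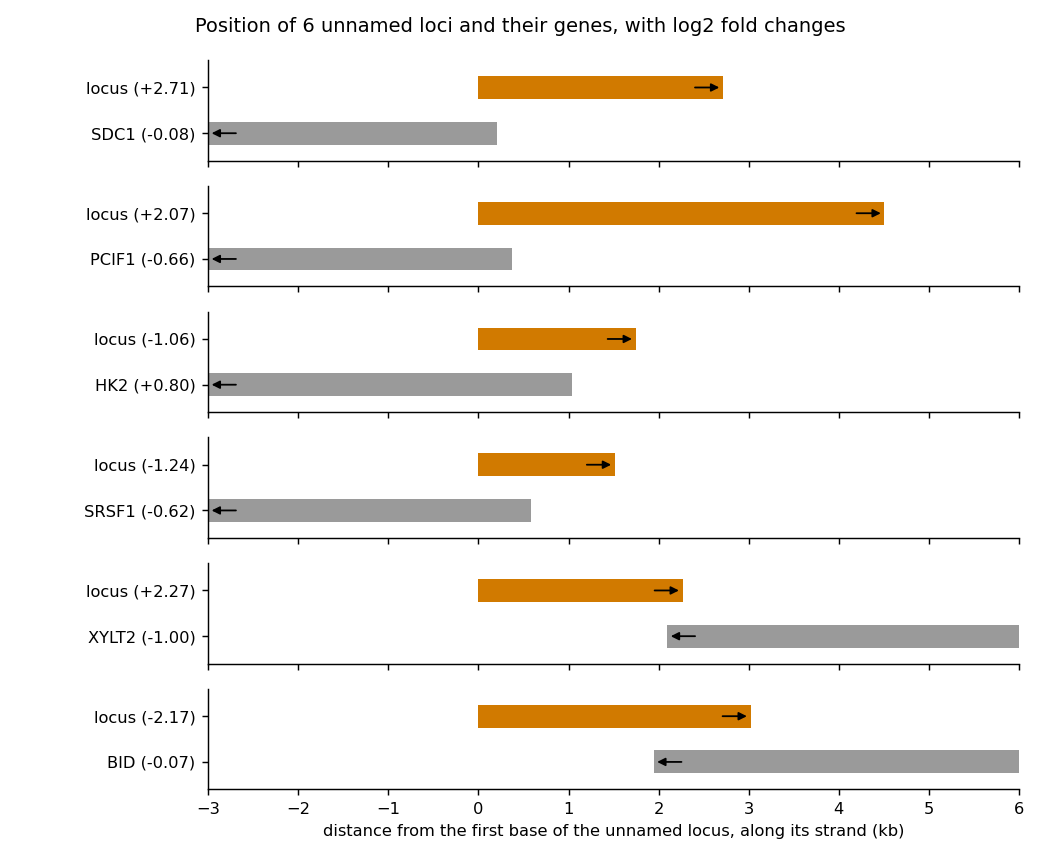
Span of 6 unnamed loci (orange) and of the named gene each overlaps (grey), in kb from the first base of the unnamed locus along its own strand, with arrows for the direction of transcription and log2 fold changes in parentheses. Grey bars that reach the edge of a panel are cut off there. The loci at SDC1, PCIF1, HK2 and SRSF1 leave the gene from its start, and those at XYLT2 and BID run into its end.

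Tail to tail loci also included rises and falls, with log2 fold changes between -3.29 and 2.83. BID is a BH3-only protein that promotes apoptosis. The locus that runs into its end (GSHG0028370, chr22:17732195-17735214, plus) was at 196, 208 and 161 in DMSO and 47.9, 42.1 and 34.1 in THZ531. It fell by 2.17 (SE 0.22, adjusted p = 2.18e-07), while BID was at 7103 ± 221 and 6793 ± 434 and was not called. The difference was -2.10 (SE 0.22, adjusted p = 9.88e-06). KDM2B, a histone demethylase that binds CpG islands, had a similar pair. Its locus (GSHG0009558, chr12:121427728-121430619, plus) fell from 218 ± 16.1 to 75.2 ± 11.3 (log2 fold change -1.53, SE 0.18), and KDM2B went from 1545 ± 125 to 1927 ± 57.3, a change under the threshold. Of this locus, 20.4% of the bases lie in exons of RNF34, the neighbour on its strand.

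XYLT2, a xylosyltransferase that starts the sugar chains of proteoglycans, showed the opposite order. The locus over its end (GSHG0019426, chr17:50362967-50365232, minus, a TEC entry in GENCODE) had 51.6, 49.2 and 16.0 in DMSO and 159, 191 and 164 in THZ531. It rose by 2.27 (SE 0.35, adjusted p = 2.33e-05), and XYLT2 fell from 3844 ± 110 to 1922 ± 48.9 (log2 fold change -0.999), a difference of 3.27 (SE 0.39). The locus at PLCB3, a phospholipase C that makes second messengers, was at 9.53, 12.99 and 18.4 in DMSO and 102, 103 and 73.9 in THZ531 (GSHG0007862, chr11:64267675-64269825, minus). It rose by 2.71 (SE 0.34, adjusted p = 2.57e-06), while PLCB3 itself went from 7976 ± 289 to 9818 ± 288, which is under the threshold. Both loci rose, over a gene that fell in the former pair and was slightly higher in the latter.

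ASIC3 encodes an acid-sensing ion channel and was weak, at 53.2 ± 7.16 in DMSO and 16.7 ± 3.61 in THZ531. Its tail to tail locus (GSHG0041259, chr7:151051514-151053380, minus) had 34.9, 56.6 and 7.98 in DMSO and 127, 132 and 106 in THZ531, a log2 fold change of 2.20 (SE 0.48, adjusted p = 0.000699). The DMSO libraries spread widely here, and the log2 fold change was 1.42 without DMSO replicate 3 and 2.77 without DMSO replicate 2. At DNHD1, a dynein heavy chain domain protein, the gene fell from 701 ± 95.6 to 119 ± 26.7 (log2 fold change -2.56). The locus at its end was at 50.02, 29.7 and 36.7 in DMSO and 75.6, 69.3 and 48.9 in THZ531, values that overlap. Its call (log2 fold change 0.73, adjusted p = 0.0395) was lost without DMSO replicate 2 (0.56) or 3 (0.71), without THZ531 replicate 1 (0.61) or 2 (0.67), and with scaling to the same total (0.49) or to RPL34 (0.25). At IGF1, the insulin-like growth factor, the long locus that matches the non-coding RNA HELLPAR fell from 98.3 ± 16.5 to 27.4 ± 4.54 (log2 fold change -1.80, SE 0.27), and IGF1 was at 12.8 ± 1.57 and 3.91 ± 1.71.

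**Figure D4:**
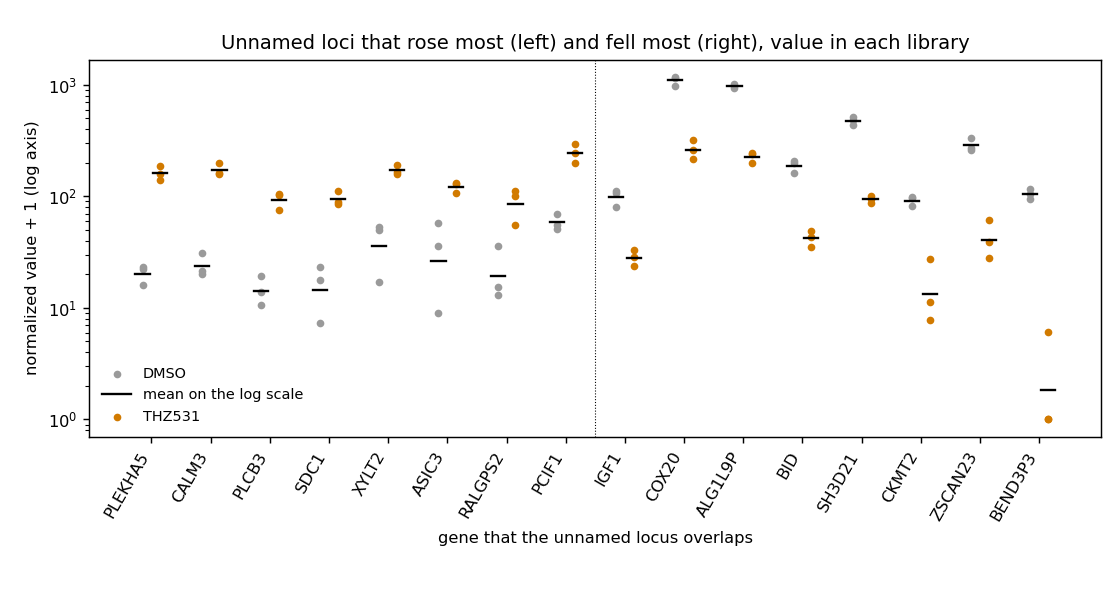
Normalized value + 1 (log axis) in each of 3 DMSO (grey) and 3 THZ531 (orange) libraries for the 8 unnamed loci that rose most (left of the dotted line) and the 8 that fell most (right), among called loci with a mean of at least 50 whose treatments do not overlap, named by the gene they overlap. Black bars are means on the log scale. The rule asks for treatments that do not overlap, so that their separation here is no result.

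Some loci that were sorted by their overlap with an opposite gene are pieces of the neighbour on their own strand. The locus at the end of COX20, an assembly factor of cytochrome c oxidase, lies at chr1:244840639-244846675 (minus, GSHG0003733), and 86.8% of its bases are in exons that GENCODE gives to HNRNPU. HNRNPU encodes a nuclear RNA-binding protein that organizes chromatin and splicing, and its own locus in the table ends upstream, at chr1:244850297-244864543. The downstream piece was at 976, 1175 and 1146 in DMSO and 214, 319 and 259 in THZ531 and fell by 2.07 (SE 0.13, adjusted p = 6.34e-10). The HNRNPU locus proper, at 50332 ± 1645 and 79273 ± 1187, rose by 0.66 (adjusted p = 7.45e-11), and COX20 rose from 4053 ± 383 to 6518 ± 83.5. The piece was below COX20 by -2.76 (SE 0.14, adjusted p = 2.99e-08), while its difference to HNRNPU, which it does not overlap in the table, was not tested. The downstream exons of HNRNPU as GENCODE draws them and the HNRNPU locus of the table moved in opposite directions.

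The most abundant locus of all was such a piece. It lies at chr19:39385121-39385671 (plus, GSHG0021628), shares 43 bases with the end of PAF1, a subunit of the PAF elongation complex, and is wholly exonic in SAMD4B, an RNA-binding repressor of translation. It was at 4845, 5081 and 5045 in DMSO and 1562, 1810 and 1701 in THZ531, a fall of 1.56 (SE 0.06, adjusted p = 1.46e-12). SAMD4B went from 27772 ± 474 to 11260 ± 510 (log2 fold change -1.30), and PAF1 from 31151 ± 2051 to 28076 ± 552 (log2 fold change -0.15). The fall of this piece was below that of PAF1 by -1.42 (SE 0.08) and of a like size to that of SAMD4B, a comparison that was not tested. Other loci mostly in exons of a same-strand gene are named here after their values were seen. A piece with 52.2% of its bases in exons of TRMU, a mitochondrial tRNA-modifying enzyme, overlaps GTSE1 on the same strand. It went from 263 ± 19.2 to 82.9 ± 25.9, and the TRMU locus from 1092 ± 76.7 to 734 ± 31.6. The pieces at CTTNBP2NL and MGA overlap these genes themselves. At CTTNBP2NL the piece was at 275 ± 53.0 and 290 ± 19.1 and the gene at 1989 ± 86.8 and 2527 ± 71.6. At MGA, a MAX partner, and G3BP2, a stress granule protein, the pieces were not called (log2 fold changes of -0.54 and -0.59), and at both the gene was higher in THZ531 (0.29 and 0.59).

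Same-strand loci that run past the end of their gene include large moves in both directions. ZSCAN23, a zinc finger protein, and the locus that begins in it and extends beyond its end (GSHG0037699, chr6:28421320-28426538, minus) fell side by side. The locus was at 258, 333 and 270.5 in DMSO and 37.8, 27.3 and 60.3 in THZ531, a fall of 2.82 (SE 0.25, adjusted p = 5.45e-08), and ZSCAN23 fell by 2.73 (SE 0.37). The difference between both was -0.09 (SE 0.33, adjusted p = 0.851). SH3D21, an SH3 domain protein, fell from 1211 ± 70.7 to 397 ± 33.0 (log2 fold change -1.61). The locus at its end (GSHG0000430, chr1:36323734-36329219, plus), 54.6% of which is exonic in SH3D21 by GENCODE, was at 483, 514 and 431 in DMSO and 85.6, 100 and 94.4 in THZ531 and fell by 2.34 (SE 0.14), further than the gene (difference -0.73, SE 0.15, adjusted p = 0.00155).

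The 3 rises named here in this class came from loci of over 100000 bases. The locus from ANKRD10 past ING1, which encodes a chromatin reader, spans 189172 bases and 6 genes (GSHG0011898, chr13:110709097-110898268, minus). It was at 696, 751 and 717 in DMSO and 2062, 2153 and 1859 in THZ531, a log2 fold change of 1.49 (SE 0.07, adjusted p = 2.84e-11), and ANKRD10 rose less, from 345 ± 58.1 to 560 ± 41.0 (difference 0.78, SE 0.14). A locus from PLEKHA5 to AEBP2, a cofactor of Polycomb repressive complex, spans 136945 bases (GSHG0008850, chr12:19306778-19443722, plus) and was at 22.2, 21.3 and 15.2 in DMSO and 157, 188 and 138 in THZ531. It rose by 2.98 (SE 0.27, adjusted p = 5.61e-08) while PLEKHA5 fell from 481 ± 41.9 to 199 ± 40.1, and their difference of 4.27 (SE 0.28, adjusted p = 2.04e-07) was the largest among called pairs with both means of at least 50. The locus at CALM3, a calmodulin gene, spans 1006085 bases (GSHG0021784, chr19:45943072-46949156, plus). It begins inside the locus listed for CALM3, with which it shares 667711 bases. It rose from 23.2 ± 6.03 to 171 ± 23.8 (log2 fold change 2.85, SE 0.26). Which of the bases in these spans gave the reads is not held in the values.

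Of the 22 loci that contain a whole gene, 7 fell (31.8%) and 2 rose (9.09%), against 23.9% and 15.7% over all loci. The locus around the snoRNA genes SNORD88A, SNORD88B and SNORD88C, which matches C19orf48P in GENCODE (GSHG0023122, chr19:50797705-50803878, minus), was at 3890, 3565 and 3365 in DMSO and 1719, 1761 and 1735 in THZ531. It fell by 1.05 (SE 0.06, adjusted p = 1.28e-10), and SNORD88B, a guide of RNA methylation, was at 49.1 ± 12.3 and 13.3 ± 4.31. The locus over FLCN, the tumor suppressor folliculin, and part of MPRIP (GSHG0017938, chr17:17181504-17238736, plus) was at 1099, 1066 and 1033 in DMSO and 506, 550 and 536 in THZ531 and fell by 1.01 (SE 0.07). FLCN, on the other strand, rose from 1142 ± 126 to 1814 ± 56.4, and the difference was -1.68 (SE 0.10, adjusted p = 9.47e-08). The locus of 540490 bases over ELL, an elongation factor, was at 55.6 ± 23.0 and 63.8 ± 18.9 and was not called, with a log2 fold change of 0.24 whose sign turned with RPL34 scaling, with scaling to the same total and without DMSO replicate 2.

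Loci at pseudogenes are uncertain, since reads of near-identical copies could be placed on either. The lowest fitted log2 fold change of the 311 was at the pseudogene BEND3P3 (GSHG0044850, chr10:79680685-79684094), with 93.7, 116 and 104 in DMSO and 5.04, 0 and 0 in THZ531 (log2 fold change -5.85, SE 0.65, adjusted p = 6.55e-07). With 2 libraries at 0 this value is set by the pseudocount, and it was -8.13 with a pseudocount of 0.1 and -3.32 with one of 10. The locus next to ALG1L9P, which GENCODE names FAM86C1P, went from 981 ± 35.6 to 226 ± 25.8 (log2 fold change -2.12, SE 0.10). The locus around SH3GL1P2 was at 2654 ± 129 and 1769 ± 48.8, and its log2 fold change of -0.58 lay just under the threshold. It passed with edgeR (-0.61), with each other scaling and without DMSO replicate 1 or THZ531 replicate 2 or 3.

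Set against their genes, 283 of the 311 loci formed a pair in which both passed the minimum. The partner was the gene with the most shared bases among those past the minimum. It can differ from the gene that set the class and lie on the locus's own strand. KIAA1614-AS1 was such a partner, for a locus tail to tail with KIAA1614. The change of the locus was above that of the gene in 84 pairs (29.7%) and below it in 52 (18.4%), with a log2 difference of at least 1.5-fold and an unadjusted limma p of at most 0.05. Over all 1600 overlapping pairs, most of them with a nested locus, the background was 36.8% above and 17.1% below. With the locus at the minimum in all 6 libraries, 53 of 184 pairs were above (28.8%) and 44 below (23.9%), against a background of 29.2% and 20.7% over 881 such pairs. Scaling shifts locus and gene alike and so bears little on these differences. Head to head pairs were above in 50 and below in 27 of 144, tail to tail pairs in 17 and 11 of 67, and same-strand pairs in 6 and 4 of 21. With the locus at the minimum in all 6 libraries these were 30 and 25 of 92, 12 and 9 of 46, and 5 and 3 of 15. The gene rose in 37 of the 283 pairs and fell in 65. How often both partners were called was not counted over all 1600 pairs. The counts that follow can thus not be called particular to these loci. Both partners rose in 14 pairs and fell in 18, or in 8 and 9 of the 184. In 14 pairs the locus rose and the gene fell, and in 4 the locus fell and the gene rose (COX20, NAXD, FLCN and HK2), or in 9 and the same 4 of the 184. The 14 include, beside those described, head to head loci at IL15RA (13.9 to 58.8, with the gene from 307 to 153), UNC5C (67.2 to 182, with the gene from 55.7 to 19.4) and PURB (30.9 to 60.2, with the gene from 6083 to 3739), given as means and named after their values were seen.

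Across loci, the log2 fold changes of locus and gene were related to a different degree in each class, as a description of loci that share libraries, depth and, in the shared bases, reads. Pearson's r was 0.06 (Spearman's rho 0.04) over 144 head to head pairs, 0.25 (0.33) over 67 tail to tail pairs and 0.58 (0.67) over 21 same-strand pairs. Classes here are those of the loci, and some tail to tail pairs hold a gene on the locus's own strand. The libraries came from a strand-specific kit, but whether reads were counted by strand is not stated, so reads of the shared bases could count on both partners or on neither.

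**Figure D5:**
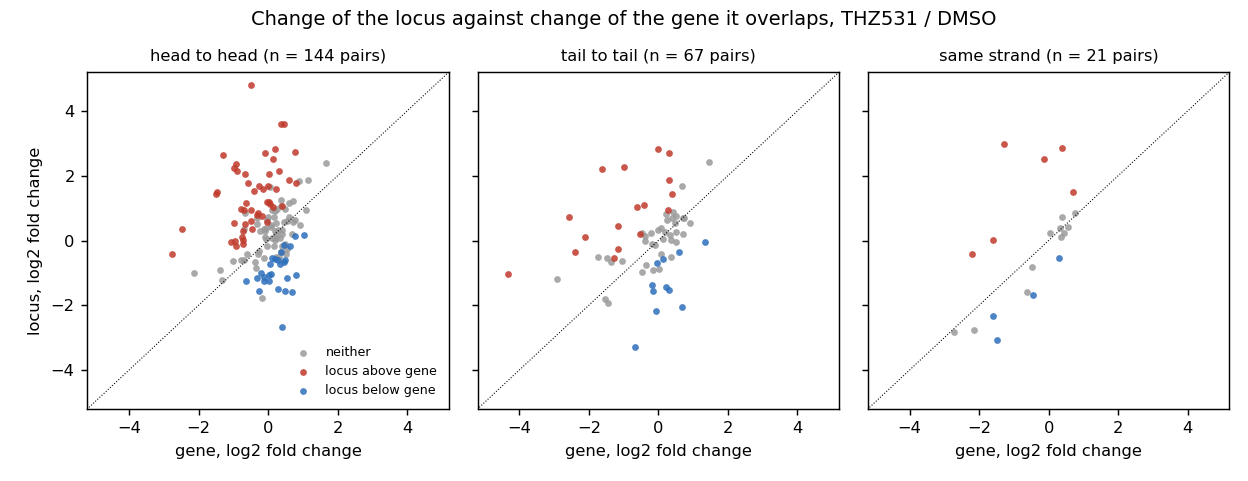
Log2 fold change (THZ531 over DMSO) of the unnamed locus against that of the gene paired with it, in 3 classes of locus. The class is set by the gene with the most shared bases, and the paired gene can be another one. Each point is 1 pair, red where the locus was above its gene, blue where it was below and grey where the difference was not called, and the dotted line marks equal change. Called differences lie on either side of the line in each panel, 77 of 144 head to head, 28 of 67 tail to tail and 10 of 21 same-strand pairs. Over all 1600 overlapping pairs, 36.8% were above and 17.1% below.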

How the data were processed

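RNA-seq of OVCAR3 cells was analysed for 3 DMSO and 3 THZ531 libraries (200 nM, 6 h), grouped by their titles. The authors prepared polyA plus libraries with a stranded TruSeq kit, aligned to hg38 with STAR, counted reads over FAST DB loci and normalized the counts with DESeq2. The deposited values are a signal: each is a read count over the size factor of its library, with no correction for length. All values were whole multiples of 1 step per library (100% within a tolerance of 0.01 reads), which gave back 53054048 to 70986130 reads per library. Columns without a sample numbered 0.

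Values were tested as log2(value + 1) with limma 3.58.1 (trended variance, no covariate) in R 4.3.3 over the 17568 loci that reached 10 in 3 or more libraries, and, as the difference of locus and gene, over all 1600 overlapping pairs, with Benjamini-Hochberg adjustment. Adjusted p-values in the text are from these fits. A fold change of 1.5 and an unadjusted p of 0.05 made a call. The pair fit took its variance trend along the weaker partner, a choice made on simulated data. On counts simulated for the 17568 loci, limma called 88 of 100 loci changed 2-fold, 99 of 100 changed 4-fold and 1.5% of the unchanged. On 1600 simulated pairs it called 6 of 20 and 14 of 16, and 4.86% of the unchanged. The recovered reads were also tested with DESeq2 1.42.0 and the quasi-likelihood test of edgeR 4.0.16.

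Strands came from GENCODE v44 for loci with a symbol and otherwise from the order of identifiers (at least 6 of up to 10 neighbours on either side with a strand, 90% of them alike). Of several genes overlapped, the one with the most shared bases set the class of the locus. A pair took the one with the most shared bases among those past the minimum, on either strand. Genome sequence was read from hg38 and promoters from RefSeq (GRCh38.p14).

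The loci and lists were chosen with earlier results of these data known. Loci named are the 8 that rose and the 8 that fell most (mean of at least 50, treatments not overlapping), the 6 with the highest mean, the 5 pairs furthest apart in each direction, the most abundant of each kind of overlap and those at genes of 3 hand-written lists or named by the study. Alternatives were pseudocounts of 0.1 and 10, no minimum and one of 50, scaling to the same total, the upper quartile and RPL34, a replicate block, no variance trend, edgeR, DESeq2, the adjusted p, a fold change of 2, leaving out each library, the most abundant gene as partner, at least 50 shared bases, and same-strand pairs only. Tables were handled in Python 3.11.15 with pandas 2.3.3.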

Additional observations from a re-analysis of the deposited data

How the results depend on the processing

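Of 311 unnamed loci, 81 rose and 62 fell, and of 283 pairs 84 were above and 52 below. Scaled to RPL34, 45 loci rose and 101 fell. With a minimum of 50, which left 138 loci and 117 pairs, 38 loci rose and 44 fell. There, 37 pairs were above and 39 below, so that both balances turned. At a fold change of 2, 30 pairs were below. With same-strand pairs only, which left 37, 7 were above and 10 below. Leaving out each library in turn gave 71 to 83 that rose, 50 to 67 that fell, 71 to 82 pairs above and 40 to 53 below. Under the other alternatives each count stayed within 1.5 times its value, with 77 loci that rose by DESeq2 and 80 by edgeR. With the replicate number as a block, 79 rose, 61 fell, 81 pairs were above and 51 below. Libraries of the same number did not deviate together (correlations of 0.00168, 0.0186 and -0.0393). This shows no shared deviation by number, but it cannot tell whether libraries of the same number were prepared together.

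Of the 30 named loci, the log2 fold change changed sign only where it was near 0, at ELL (-0.25 with RPL34, -0.00036 with the same total, -0.043 to 0.54 with 1 library left out), at GTF3C2 (-0.19 with RPL34) and at FANCF (-0.35 to 0.22 with 1 library left out). The cause was not tested. Depth limits the weak loci, since 182 of the 311 had a mean under 50.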
